A study of Arabidopsis thaliana with 10 samples.

Results

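The genes described here are 6 exocyst subunits (SEC5A, SEC8, SEC15A, EXO70A2, EXO70C1 and EXO70C2) and 4 syntaxins (SYP124, SYP125, SYP131 and SYP132). They were chosen by name, as 10 of the 27394 genes in the count tables, and all 10 had reads in every library. Messenger RNA of Arabidopsis thaliana pollen was sequenced in 10 libraries, in 5 groups of 2. All plants were in the Col-0 background. WT Col-0 was untransformed pollen. Plants of the groups pLAT52::RTL1 and pMGH3::RTL1 carried a Myc-tagged RTL1 transgene (RTL1 is an RNase III-like enzyme that suppresses the formation of small interfering RNAs). The LAT52 promoter is active in the late microspore and then in the vegetative cell, and the MGH3 promoter in the sperm lineage. The study used independent transgenic lines, so libraries of 1 construct may differ because their lines do. WT FTL and nrpd1a-3 FTL pollen came from the same heterozygous plants, in which a DsRed marker driven by the LAT52 promoter was linked to the wild-type copy of NRPD1A, the gene for the largest subunit of RNA polymerase IV. DsRed-positive grains (WT FTL) and DsRed-negative grains (nrpd1a-3 FTL) were separated by fluorescence-activated sorting, whereas the other 3 groups were unsorted.

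Pollen tubes grow at the tip by fusing secretory vesicles with the plasma membrane. The exocyst is a tethering complex that holds a vesicle at the membrane before fusion. SEC5, SEC8 and SEC15 are subunits of its core. EXO70 is a subunit that can bind membrane lipids, encoded in plants by a large family whose members differ between cell types. Fusion itself is driven by SNARE proteins, and syntaxins are the SNAREs that sit in the target membrane. SYP124, SYP125 and SYP131 are known as the pollen syntaxins of the plasma membrane, and SYP132 is expressed throughout the plant.

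Each library held between 43490027 and 53471964 reads over genes and transposable elements (TEs). RTL1 reads were 270 and 138 (pLAT52::RTL1) and 134 and 156 (pMGH3::RTL1), with 0 in the other 6 libraries. NRPD1A had 10 reads or fewer in each of the 4 FTL libraries, which is too few to check their labels. All 10 vegetative cell markers and all 10 sperm cell markers had reads in every group, and 10 leaf markers together reached 64.8 RPM (reads scaled to the library total over genes and TEs) at most. The labels call the 2 libraries of a group biological replicates. The p-values rest on a spread between replicates that is estimated for each feature over all groups fitted together.

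The members lie on chromosomes 1, 3 and 5. SYP124 (AT1G61290, chr1:22605010-22606216), SYP125 (AT1G11250, chr1:3768725-3769706), SYP131 (AT3G03800, chr3:969108-971460) and EXO70C2 (AT5G13990, chr5:4514569-4516892) carry the results that follow, in TAIR10 coordinates as the count tables give them. EXO70C2 and its closest relative here, EXO70C1 (AT5G13150, chr5:4172830-4174930), have a single exon each, whereas SYP131 has 13. The relatives were separable by sequence. No stretch of 50 bases in the exons of any of the 10 genes occurred elsewhere in the genome. The closest pair was SYP124 and SYP125, which were identical at 82.16% of aligned coding bases. EXO70C1 and EXO70C2 were identical at 61.05%, and SYP131 and SYP132 at 73.38%. The longest stretch that SYP124 and SYP125 shared is shown because it bounds how reads could be confused between them. It is 35 bases long, lies in coding exons on the plus strand at chr1:22606103-22606137 and chr1:3769593-3769627, and is shorter than a sequenced read:
SYP124 and SYP125: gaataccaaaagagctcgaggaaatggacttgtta

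The 250 bases before the annotated start are shown for SYP131, the member with the lowest log2 fold change in pLAT52::RTL1 pollen, and for EXO70C1 and EXO70C2, whose balance differed between sorted and unsorted pollen. In none of these windows did another gene lie. The sequences are from the RefSeq annotation of TAIR10.1 and read 5′ to 3′ on the strand of the gene. Capitals mark AGAAA, an element described in the tomato LAT52 promoter, and GTGA, described in the tobacco pollen gene g10, with their reverse complements (TTTCT and TCAC). The motifs do not overlap each other here. SYP131 is at chr3:968800-969049 on the plus strand, EXO70C1 at chr5:4175363-4175612 and EXO70C2 at chr5:4516893-4517142, both on the minus strand:
SYP131: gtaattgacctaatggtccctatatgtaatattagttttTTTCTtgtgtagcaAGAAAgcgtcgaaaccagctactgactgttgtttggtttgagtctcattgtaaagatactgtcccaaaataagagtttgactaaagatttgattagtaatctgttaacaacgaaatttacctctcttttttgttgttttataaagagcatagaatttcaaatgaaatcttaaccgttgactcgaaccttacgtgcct
EXO70C1: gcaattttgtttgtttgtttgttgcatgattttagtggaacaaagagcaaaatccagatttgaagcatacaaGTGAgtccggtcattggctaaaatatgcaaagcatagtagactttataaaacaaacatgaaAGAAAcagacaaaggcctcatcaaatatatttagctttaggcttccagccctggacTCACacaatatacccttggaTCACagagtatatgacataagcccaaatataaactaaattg
EXO70C2: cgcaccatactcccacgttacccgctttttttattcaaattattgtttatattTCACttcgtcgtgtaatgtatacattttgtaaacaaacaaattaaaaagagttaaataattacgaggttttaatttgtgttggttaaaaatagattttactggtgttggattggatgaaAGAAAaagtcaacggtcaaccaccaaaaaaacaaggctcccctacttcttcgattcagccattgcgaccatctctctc

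SYP131 held 2 matches to AGAAA and 0 to GTGA over both strands. EXO70C1 held 1 and 3, and EXO70C2 held 1 and 1. These are common letters: AGAAA occurred in 82.5% and GTGA in 77.5% of the 27561 windows of the same length before annotated genes. A match is a description of the letters only.

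Levels are given as normalized counts per kb of transcript (reads divided by the size factor of the library and by the length of the longest annotated transcript), on separate scales for the 6 unsorted and the 4 sorted libraries. In WT Col-0 pollen SYP131 had the highest mean level at 21237, followed by SYP124 at 8077, EXO70C2 at 6052, SYP125 at 3571, EXO70C1 at 962 and EXO70A2 at 178. SEC15A (88.8) and SYP132 (80.7) overlapped between their libraries, so their order was not resolved. SEC8 (54.8) and SEC5A (25.5) were the lowest. In pMGH3::RTL1 pollen the order was the same. In pLAT52::RTL1 pollen the libraries of SYP131 and SYP124 overlapped, and so did those of SEC15A, SYP132 and SEC8. In sorted pollen SYP125 stood above EXO70C2 in both groups.

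**Figure D1:**
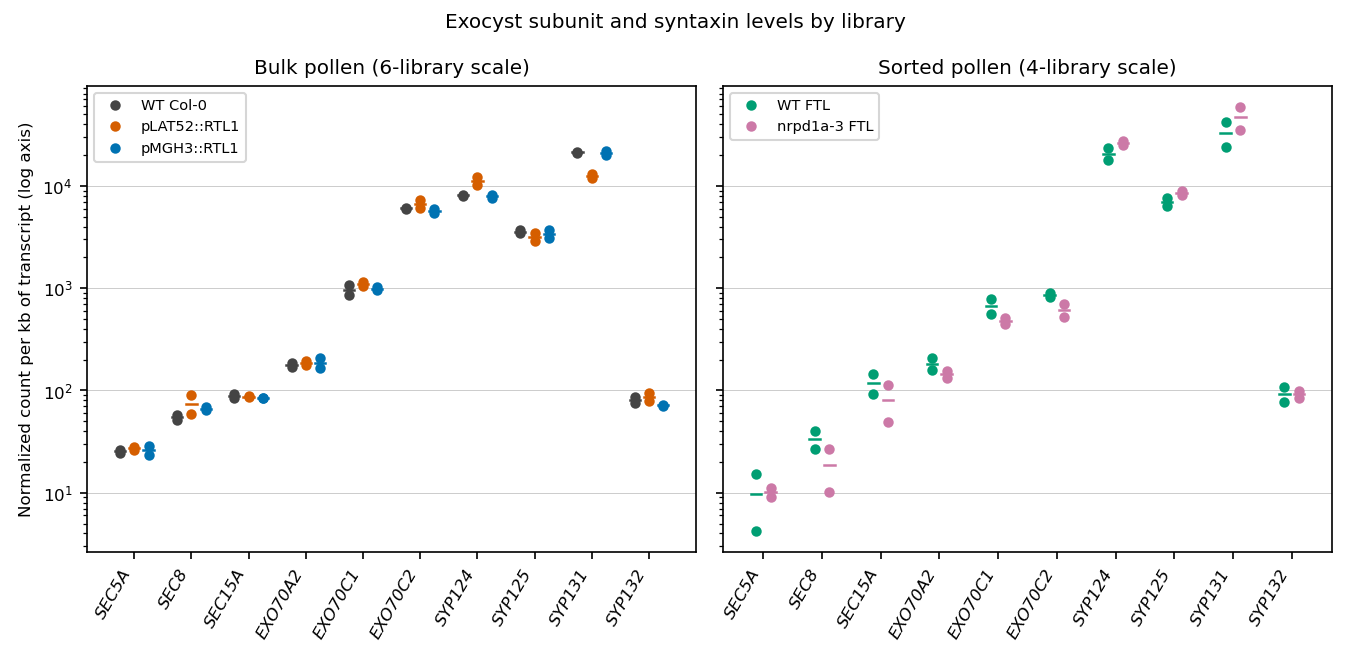
Normalized counts per kb of transcript (log axis) of the 10 genes, with a point for each library and a bar for the mean of each group. Unsorted pollen is on the left and sorted pollen on the right, each on its own scale. SYP131 drops from 21237 to 12427 on average in pLAT52::RTL1 pollen, where it meets SYP124.

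The question in the RTL1 experiment was what changed in pollen when RTL1 was expressed in the vegetative cell lineage or in the sperm lineage. In pLAT52::RTL1 against WT Col-0, 2 of the 10 members passed the test (DESeq2, adjusted p under 0.05, referred to as called), beside 14.3% of all 11002 features tested. SYP131 was lower, as were 7.77% of features, and SYP124 was higher, as were 6.53%. As a share of the members this is close to the background. The remaining 8 members, which include all 6 exocyst subunits, were not called. The median log2 fold change of the 10 members was 0.11, against -0.01 over all features tested.

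SYP131, the most abundant syntaxin, had levels of 21548 and 20926 (WT Col-0), 11823 and 13031 (pLAT52::RTL1), and 22028 and 19910.5 (pMGH3::RTL1). Both pLAT52::RTL1 libraries were below all 4 of the others. The log2 fold change against WT Col-0 was -0.77 ± 0.16 (SE, n = 2 against 2), or 0.585 times the control level, with a DESeq2 adjusted p of 1.85e-05. Against pMGH3::RTL1 it was -0.75 ± 0.16, with a DESeq2 adjusted p of 3.37e-05.

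SYP124, whose protein is known from the membrane behind the tip of the growing tube, had levels of 7958 and 8196 (WT Col-0), 12326 and 10167 (pLAT52::RTL1), and 8197 and 7662 (pMGH3::RTL1). Here both pLAT52::RTL1 libraries were above the other 4. The log2 fold change against WT Col-0 was 0.48 ± 0.17 (SE, n = 2 against 2), or 1.39 times the control level, with a DESeq2 adjusted p of 0.0313. The call did not hold with edgeR (adjusted p 0.0615), without WT Col-0 replicate 1 (0.392) or without WT Col-0 replicate 2 (0.224), although the log2 fold change stayed between 0.34 and 0.62 whichever library was left out.

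Scaling mattered for both genes. When libraries were scaled to their total reads, the median over all features moved up by 0.483 on the log2 scale. SYP131 was then at -0.29 and not called (adjusted p 0.147), and SYP124 was at 0.96 (adjusted p 3.1e-07). SEC8, EXO70C1 and EXO70C2 were called higher on that scale, at 0.92, 0.68 and 0.62, so 4 members were called there and all 4 were higher. Features called over the whole table rose from 1573 to 3294 on that scale. How many of those were higher is not given here, so the direction is not read as a result about the members. With all 10 libraries in 1 fit neither syntaxin was called (adjusted p 0.347 for SYP131 and 0.509 for SYP124).

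The ratio of SYP124 to SYP131 reads needs no scaling between libraries. Its values were 0.353 and 0.374 (WT Col-0), 0.356 and 0.368 (pMGH3::RTL1), and 0.996 and 0.745 (pLAT52::RTL1). The first 4 values lay close together, and both pLAT52::RTL1 values lay well above them. The sorted libraries fell in between, at 0.705 and 0.533 (WT FTL) and at 0.683 and 0.449 (nrpd1a-3 FTL), and these groups overlapped each other.

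The same shift was seen in the make-up of the plasma membrane syntaxins. Among the summed reads per kb of 9 syntaxin genes (SYP111, SYP112, SYP121 to SYP125, SYP131 and SYP132), SYP131 took 64.2% in WT Col-0, 64.5% in pMGH3::RTL1 and 46.1% in pLAT52::RTL1. SYP124 took 24.4%, 24.4% and 41.5%. SYP125 took 10.8%, 10.4% and 11.7%, and SYP132 took 0.360% at most in any library. No test was run on these shares, which follow from the same reads as the tests above.

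SYP125 is the closest relative of SYP124. Its levels were 3686 and 3457 (WT Col-0), 3440 and 2913 (pLAT52::RTL1), and 3721 and 3076 (pMGH3::RTL1). The log2 fold change under pLAT52::RTL1 was -0.17, with a 95% interval of -0.51 to 0.18. SYP124 therefore made up more of the pair, with 78.0% ± 0.321 (SD, n = 2) of their reads per kb in pLAT52::RTL1 against 69.3% ± 1.40 (WT Col-0) and 70.1% ± 1.82 (pMGH3::RTL1). SYP132 had levels of 75.1 and 86.3 (WT Col-0) and of 79.4 and 94.7 (pLAT52::RTL1), which overlapped.

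**Figure D2:**
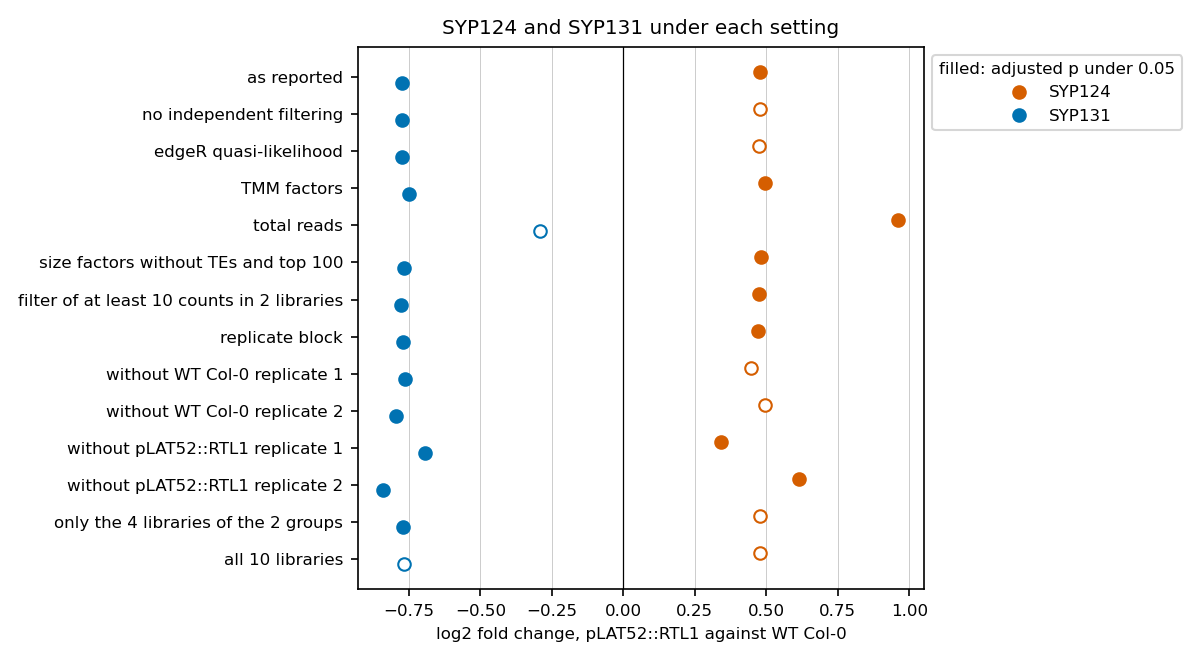
log2 fold changes of SYP124 and SYP131 in pLAT52::RTL1 against WT Col-0 under each setting tried, with filled points where the adjusted p was under 0.05. SYP131 stays below 0 and SYP124 above 0 in every setting, from -0.84 to -0.29 and from 0.34 to 0.96, but the calls depend on the setting.

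Some cell type markers also differed in the same comparison, in which 7.77% of all features were called lower and 6.53% higher. Of the 10 vegetative cell markers, 5 were called lower and 1 higher in pLAT52::RTL1, with a median log2 fold change of -0.44, and their summed level was 41356.5 to 48513.7 RPM against 48917.5 to 51662.6 in WT Col-0. Of the 10 sperm cell markers 1 was called lower, near the share of all features (577 to 771 RPM in sum, against 542 to 591). Of the 5 leaf markers tested 2 were called higher, with a median log2 fold change of 2.79, and all 10 summed to 55.8 to 64.8 RPM, against 35.0 to 39.7. In pMGH3::RTL1 against WT Col-0 the leaf markers had a similar median of 2.70 over 10 tested, with 9 above 0 and 1 called higher. They summed to 37.1 to 38.7 RPM there. Between the constructs 3 leaf markers were tested and 0 called, with a median of -0.11. Calls and medians used median-of-ratios size factors, whereas the sums in RPM are scaled to library totals. On the total read scale the median over all features moved up by 0.483, so calls and sums are not directly comparable. The part of these markers in the syntaxin result was not tested, and in bulk pollen fewer cells of a type and less RNA per cell cannot be told apart.

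None of the 6 exocyst members was called in the unsorted comparisons with median-of-ratios size factors. EXO70C2, known in Arabidopsis as a regulator of tip growth in pollen tubes, had levels of 6004 and 6099.7 (WT Col-0), 6097 and 7255 (pLAT52::RTL1), and 5486 and 5956 (pMGH3::RTL1). Under pLAT52::RTL1 its log2 fold change was 0.14, with a 95% interval of -0.18 to 0.46, or 0.883 to 1.38 times the control level. EXO70C1 had 858 and 1067 (WT Col-0), 1149 and 1055 (pLAT52::RTL1), and 962 and 1023 (pMGH3::RTL1), with a log2 fold change of 0.19 and an interval of -0.15 to 0.54 under pLAT52::RTL1. The libraries of the constructs and of WT Col-0 overlapped for EXO70C1, and those of pLAT52::RTL1 and WT Col-0 for EXO70C2.

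EXO70A2, which is required for pollen germination in Arabidopsis, had levels between 165 and 206 in all 6 unsorted libraries, and its interval in pLAT52::RTL1 was -0.38 to 0.51. SEC15A ranged from 83.6 to 92.8 and SEC5A from 23.2 to 28.7. SEC8 was the exocyst member with the widest difference. It had 52.0 and 57.5 (WT Col-0), 89.7 and 58.8 (pLAT52::RTL1), and 64.4 and 68.4 (pMGH3::RTL1), so both constructs lay above the control. Under pLAT52::RTL1 its log2 fold change was 0.44 ± 0.28, with a DESeq2 adjusted p of 0.354. These low genes had between 75 and 564 reads in each unsorted library, and the interval of SEC5A was -0.60 to 0.80.

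In pMGH3::RTL1 against WT Col-0 none of the 10 members was called by DESeq2, 0 had an unadjusted p under 0.05, and edgeR called 0. The background was 0.0217% of 27651 features called, and 308 features of the whole table had an unadjusted p under 0.05. The values ran from -0.18 (SYP132) to 0.28 (SEC8). For the syntaxins that were called in the other construct the intervals were narrow, at -0.33 to 0.29 for SYP131 and -0.35 to 0.30 for SYP124. The direct comparison of pLAT52::RTL1 with pMGH3::RTL1, in which 12.9% of features were called, again gave SYP131 lower (with 7.36% of features) and SYP124 higher (with 5.53%), the latter at 0.50 ± 0.17 with a DESeq2 adjusted p of 0.0220, and no other member. On the total read scale the members called in the direct comparison were SYP124, EXO70C1 and EXO70C2, and SYP131 was not called. Features called over the whole table rose from 1353 to 3124 on that scale. Both contrasts share the pLAT52::RTL1 libraries.

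**Figure D3:**
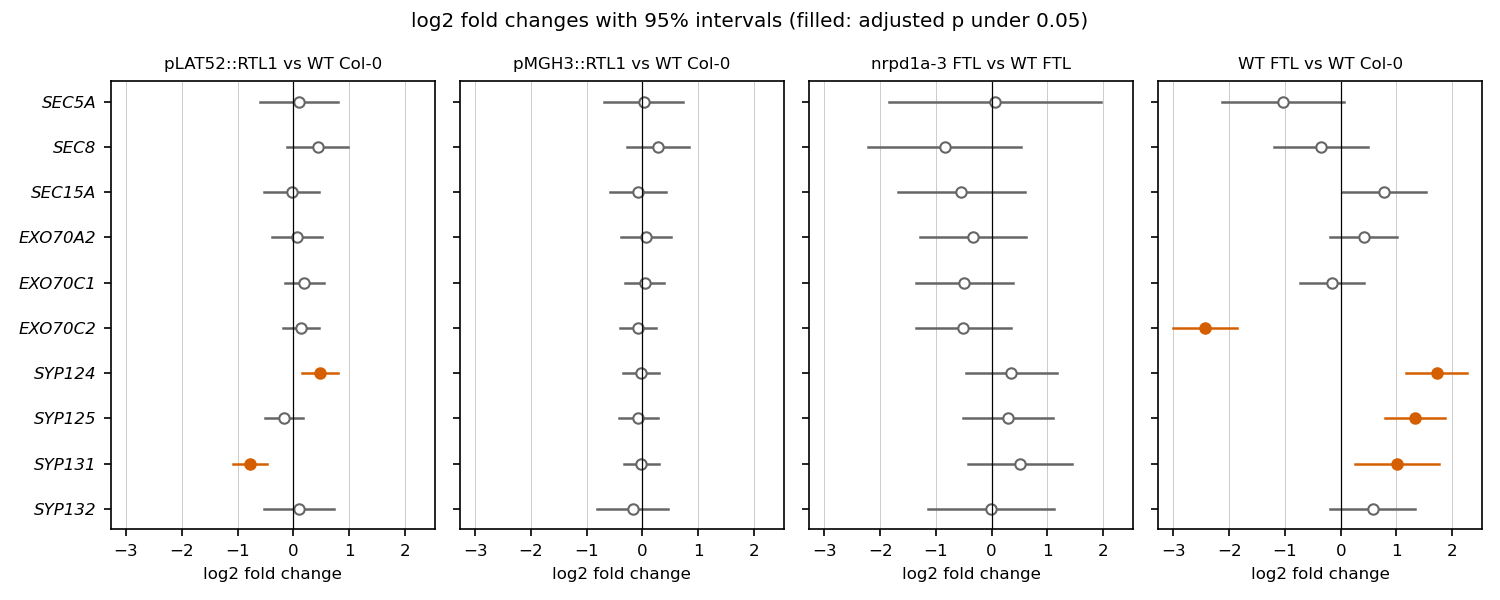
log2 fold changes of the 10 genes with 95% intervals in 4 comparisons, with filled points where the DESeq2 adjusted p was under 0.05. Called members are SYP124 and SYP131 in pLAT52::RTL1, and EXO70C2, SYP124, SYP125 and SYP131 in WT FTL against WT Col-0. The intervals of nrpd1a-3 FTL against WT FTL are the widest of the 4 panels for most genes.

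The rest of the machinery was read from a list of 29 other exocyst genes and a list of 23 other genes of fusion at the plasma membrane. Of the 13 exocyst genes tested in pLAT52::RTL1 against WT Col-0, 0 were called higher and 3 lower, with a median log2 fold change of -0.17, beside 6.53% and 7.77% of all features. All 3 were EXO70 genes, which make up most of this list. EXO70H3, the most abundant exocyst gene of this pollen, had levels of 23019.6 and 22232 (WT Col-0), 8276 and 9823 (pLAT52::RTL1), and 23358 and 20243 (pMGH3::RTL1). Both pLAT52::RTL1 libraries were far below the other 4. Its log2 fold change was -1.32 ± 0.17 (SE, n = 2 against 2), with a DESeq2 adjusted p of 1.6e-13, and it stayed called on the total read scale, at -0.84. EXO70F1 was at -1.25 (DESeq2 adjusted p 8.25e-10), and EXO70H6 was at -0.79 (0.000743) and at -0.31 and not called on the total read scale. EXO70H5, the next most abundant of the 29 other exocyst genes, had a log2 fold change of 0.18 (DESeq2 adjusted p 0.655).

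The make-up of the EXO70 family shifted accordingly, although EXO70C2 itself was not called. Among the summed reads per kb of 23 EXO70 genes, EXO70H3 took 69.5% in WT Col-0, 69.7% in pMGH3::RTL1 and 46.7% in pLAT52::RTL1. EXO70C2 took 18.6%, 18.4% and 34.4%. EXO70C1 took 2.96%, 3.19% and 5.73%, and EXO70A2 took 0.972% at most in any library. Shares within a library do not depend on scaling, but a share rises when another falls.

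**Figure D4:**
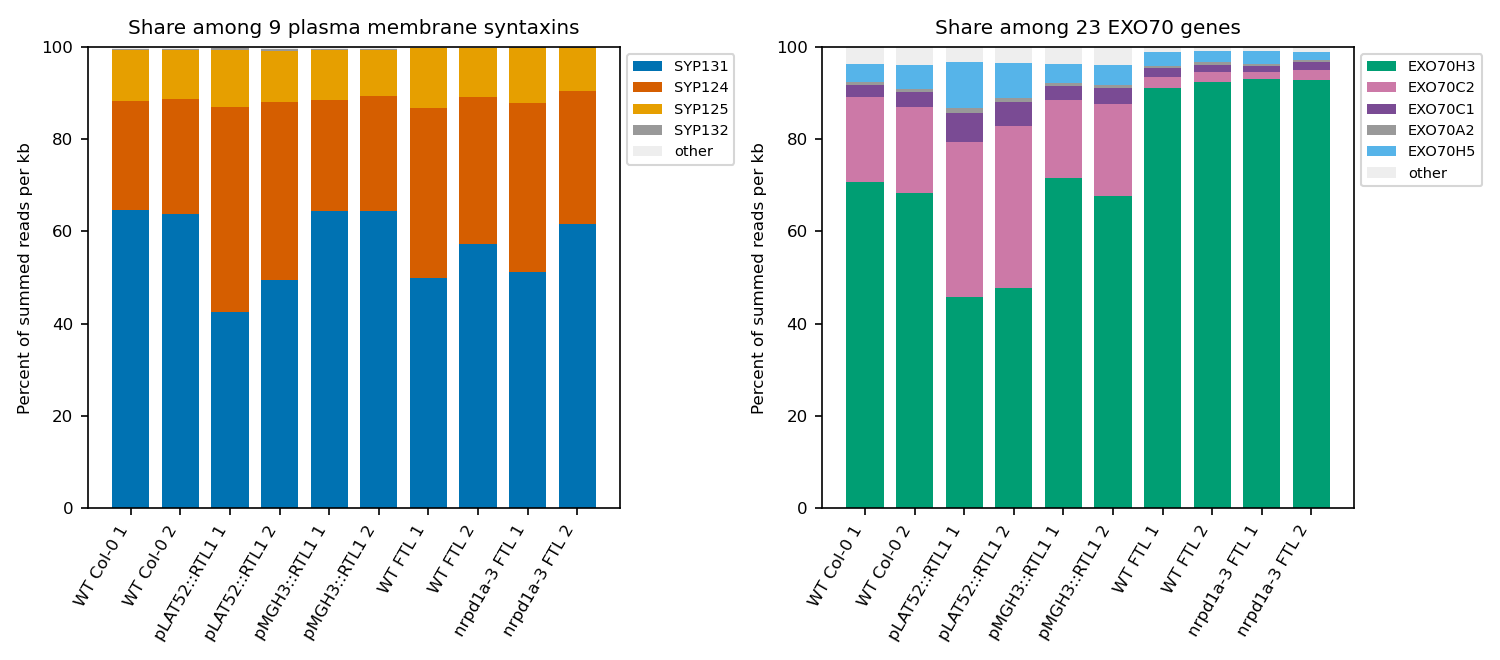
Percent of the summed reads per kb taken by each gene in each library, among 9 plasma membrane syntaxins (left) and 23 EXO70 genes (right). In pLAT52::RTL1 the share of SYP131 falls to 46.1% and that of EXO70H3 to 46.7% on average. In the sorted libraries EXO70H3 takes at least 91.2% and EXO70C2 at most 2.30%.

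Of the 17 other fusion genes tested in pLAT52::RTL1 against WT Col-0, 2 were called higher and 2 lower, with a median of -0.11, beside 14.3% of all features called in either direction. The SNARE genes SNAP30 (0.59 ± 0.19, DESeq2 adjusted p 0.0182) and VAMP726 (0.87 ± 0.23, 0.00231) were higher. SNAP30 encodes a SNAP25-like SNARE that pairs with syntaxins, and VAMP726 encodes a SNARE of the vesicle membrane. NPSN11, a SNARE known from cell plate formation, was lower at -0.84 ± 0.17 (DESeq2 adjusted p 3.56e-05), and at -0.35 and not called on the total read scale. KEULE, a Sec1/Munc18 protein that binds syntaxins, was at -0.48 ± 0.16 (DESeq2 adjusted p 0.0197), with an edgeR adjusted p of 0.0504 and a value of -0.0012 on the total read scale. SYP72, the most abundant of this list, was at -0.11 and not called. Without pLAT52::RTL1 replicate 1, neither SNAP30 (adjusted p 0.0884) nor VAMP726 (0.0568) was called. In pMGH3::RTL1 against WT Col-0, 0 of 28 exocyst and 0 of 23 fusion genes tested were called by DESeq2, and 0 had an unadjusted p under 0.05.

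The FTL experiment asked what changed in pollen that inherited the nrpd1a-3 allele. In nrpd1a-3 FTL against WT FTL none of the 10 members was called by DESeq2 or edgeR, beside 0.008% of 24995 features called by DESeq2. Of the members 0 had an unadjusted p under 0.05, whereas 653 features of the whole table did. No interval of a member excluded 0 in this fit, which did not pair the replicate numbers. With the replicate number as a block none of the members was called either, and SYP131 was at 0.51 (DESeq2 adjusted p 0.137). SYP131 had levels of 24077 and 41774 (WT FTL) and of 34853 and 58814 (nrpd1a-3 FTL), which overlapped. SYP124 had 17754 and 23296 against 24900.5 and 27641, and SYP125 had 6293 and 7619 against 8177 and 8863, both without overlap on this scale. This separation is not set against its share over all features here, so it is not read as a difference. On the scale of all 10 libraries SYP124 overlapped, with 27309 in WT FTL replicate 2 and 27237 in nrpd1a-3 FTL replicate 1. The log2 fold changes were 0.51 (95% interval -0.42 to 1.44), 0.36 (-0.46 to 1.18) and 0.29 (-0.52 to 1.1). On the total read scale they were 0.18, 0.06 and -0.0033.

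Among the exocyst members, EXO70C2 had 906 and 825 (WT FTL) against 526 and 694 (nrpd1a-3 FTL), and EXO70C1 had 789.8 and 559 against 445 and 517. Neither gene overlapped between the groups on the scale of the sorted libraries, which is likewise not read as a difference. On the scale of all 10 libraries EXO70C1 overlapped, with 655 in WT FTL replicate 2 and 682 in nrpd1a-3 FTL replicate 2. The log2 fold changes were -0.51 for EXO70C2 (95% interval -1.35 to 0.34) and -0.49 for EXO70C1 (-1.35 to 0.38), against a median of 0.16 over all features tested. The ratio of EXO70C2 to EXO70C1 reads was 1.01 and 1.31 (WT FTL) and 1.05 and 1.19 (nrpd1a-3 FTL). SEC8 was at -0.84, with an interval of -2.22 to 0.53 on 32 to 190 reads a library. Without a replicate block the intervals of all 10 members reached a change of 2 times in 1 direction at least. A change of that size was therefore not excluded in that fit for any of them. No gene of the lists of other exocyst genes (27 tested) and other fusion genes (23 tested) was called by DESeq2. In each list 2 had an unadjusted p under 0.05, as had 653 features of the whole table.

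The wild-type groups of both experiments were also compared, on a scale common to all 10 libraries. WT FTL and WT Col-0 differ in sorting, in the DsRed line, in the parent plants and in the experiment, and these cannot be told apart. Of the 10 members 4 were called, beside 30.3% of 16312 features, a share of the members not far from the background. EXO70C2 was lower in WT FTL, with 15.4% of features, and the 3 pollen syntaxins were higher, with 14.9%.

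EXO70C2 had levels of 5326 and 5372 (WT Col-0) against 1005 and 967 (WT FTL) on this scale. The groups stood far apart, with a log2 fold change of -2.44 ± 0.29 (SE, n = 2 against 2), or 5.42 times lower, and a DESeq2 adjusted p of 1.08e-14. EXO70C1 did not move with it: it had 761 and 939 (WT Col-0) against 876 and 655 (WT FTL), which overlapped, and its interval was -0.72 to 0.42. The ratio of EXO70C2 to EXO70C1 reads, which needs no scaling, was 6.19 and 5.06 (WT Col-0), 4.69 and 6.08 (pLAT52::RTL1), 5.04 and 5.15 (pMGH3::RTL1), and between 1.01 and 1.31 in the 4 sorted libraries. EXO70C1 thus made up 13.7% of the pair in WT Col-0 and 43.5% in WT FTL.

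SYP124 had levels of 7059 and 7219 (WT Col-0) against 19690.4 and 27309 (WT FTL), a log2 fold change of 1.72 ± 0.28 (DESeq2 adjusted p 3.31e-08). SYP125 had 3269 and 3045 against 6979 and 8932, a log2 fold change of 1.33 ± 0.27 (DESeq2 adjusted p 1.57e-05). SYP131 had 19113 and 18430.1 against 26703 and 48971, a log2 fold change of 1.01 ± 0.38 (DESeq2 adjusted p 0.0309). The sorted libraries were above the unsorted ones for all 3 genes. The call of SYP131 was lost without WT FTL replicate 2, where its log2 fold change was 0.51 (adjusted p 0.370), and without either WT Col-0 library (adjusted p 0.118 and 0.135), and also without independent filtering (adjusted p 0.0573).

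SEC5A (-1.04 ± 0.56), SEC15A (0.78 ± 0.39), SYP132 (0.57 ± 0.39), EXO70A2 (0.41 ± 0.31) and SEC8 (-0.35 ± 0.43) were not called in WT FTL against WT Col-0. SEC5A was called without WT FTL replicate 1, at -2.18 (adjusted p 0.00287). This rests on WT FTL replicate 2, which had 16 SEC5A reads against 66 in replicate 1. Of the 21 other exocyst genes tested, 1 was called higher (EXO70H3, 0.98) and 2 lower (EXO70F1, -1.47, and EXO70H6, -1.61). The background was 30.3% of 16312 features called (14.9% higher, 15.4% lower), a share that neither this list nor the next exceeded. Of the 22 other fusion genes tested, 4 were called higher and 1 lower, with SYP72 (1.54) and SNAP30 (1.26) among the higher. Without WT FTL replicate 2 neither was called (0.96, adjusted p 0.0546, and 0.67, adjusted p 0.295), and SNAP30 was not called without WT Col-0 replicate 1 (adjusted p 0.120).

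Vegetative cell markers were also lower in sorted pollen. In WT FTL 6 of the 10 were called lower and 0 higher, beside 15.4% and 14.9% of all features. Their median log2 fold change was -1.03, and their summed level was 8398 to 20657 RPM, against 48917.5 to 51662.6 in WT Col-0. Of the sperm cell markers 1 was called higher and 2 lower (591 to 931 RPM in sum, against 542 to 591). Of the leaf markers, 6 had 0 reads in both WT FTL libraries. The part of the vegetative markers in the EXO70C2 result was not tested.

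Neighbouring genes bore on a few members. The annotated ends of EXO70C2 share 98 bases with AT5G13980 on the opposite strand, and those of SEC5A share 85 bases with LSM3B, also opposite. Without stated use of strand, reads in these bases cannot be assigned. AT5G13980 held 121 to 578 reads in all libraries, against 1266 to 21662 for EXO70C2, and was also called lower in WT FTL against WT Col-0 (-0.89 ± 0.31, DESeq2 adjusted p 0.0161). LSM3B held 34 reads against 42 for SEC5A in nrpd1a-3 FTL replicate 1 and 12 against 16 in WT FTL replicate 2, and 42 reads at most in any library. In the RefSeq annotation SEC5A also shares 525 bases with AT1G09677 on the opposite strand. There SYP125 overlaps AT1G11240 and SYP131 overlaps EDA30, both on the opposite strand, and SYP124 overlaps AT1G61280 on the same strand. These held at most 78, 145 and 64 reads in a library, against at least 4351, 20609 and 7938 for the syntaxins.

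The pLAT52::RTL1 effect and the nrpd1a-3 effect were set against each other in a single fit of all 10 libraries. With all 10 libraries, no replicate block and no scaling to total reads, none of the 10 members was called by DESeq2 or edgeR. DESeq2 called 2.73% of 11852 features. Among the members 2 had an unadjusted p under 0.05 by DESeq2, as had 1570 features of the whole table. SYP131 had the widest difference at -1.38 ± 0.54 (DESeq2 adjusted p 0.185), with lower values under pLAT52::RTL1 and higher values in nrpd1a-3 FTL. With the replicate number as a block SYP131 was called (-1.36, adjusted p 6.97e-05). SEC8 was next at 1.24 ± 0.61 (DESeq2 adjusted p 0.396). SYP131 was called when WT FTL replicate 2 (-1.90, adjusted p 0.00505) or nrpd1a-3 FTL replicate 1 (-1.81, adjusted p 0.00487) was left out, and SEC8 without the latter (1.93, adjusted p 0.0302). For SYP124 the difference was 0.04, with a 95% interval of -0.74 to 0.82. On the total read scale EXO70C1 and EXO70C2 were called, where 1001 features of the whole table were called.

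Genes whose pattern over the 10 libraries was most like that of a member were sought among 4140 genes whose normalized count averaged 200 or more, by the root mean square difference of centred log2 levels. ROPGEF12 was nearest to EXO70C2, at a difference of 0.11, where the pattern of EXO70C2 itself had a root mean square of 1.33. SBP1 was nearest to SYP131 (0.12 against 0.87), AT1G14010 to SYP124 (0.10 against 0.91) and UBQ3 to SYP125 (0.084 against 0.81). AT1G14560 was nearest to EXO70C1 (0.072 against 0.30), AT4G19860 to EXO70A2 (0.12 against 0.20) and RAB8 to SYP132 (0.12 against 0.36). GCN2 was nearest to SEC5A (0.20 against 0.68), GYRB3 to SEC8 (0.19 against 0.67) and AT5G10740 to SEC15A (0.13 against 0.39).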

How the data were processed

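The authors deposited unnormalized read counts over the genes, TEs and intergenic intervals of TAIR10. By the study's methods, paired reads of 100 bases were aligned with STAR. The counting program and its use of strand are not given in the sources used here. Among genes and TEs above a minimum read count, between 65.7% and 74.8% held an even count, as counting both mates would give, so counts overstate independent molecules. DESeq2 1.42.0 (R 4.3.3) was run on genes and TEs jointly (median-of-ratios size factors, Wald test, independent filtering, Benjamini-Hochberg adjustment, threshold 0.05, fold changes not shrunken). The 6 unsorted libraries were fitted together, the 4 sorted libraries together, and all 10 for comparisons across experiments. edgeR 4.0.16, other scalings, filters and sample sets, a replicate block and leaving out each library were alternatives. The test was checked on simulated data. Replicates differed by more than sampling noise in every group, with a chi-square per degree of freedom of 29.6 (WT Col-0), 226 (pLAT52::RTL1) and 50.7 (pMGH3::RTL1). It was 582 in WT FTL and 586 in nrpd1a-3 FTL. Intergenic intervals (2.23% to 6.33% of reads) were left out.

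The 10 members, the lists of other genes and the markers were chosen with earlier results of these data known. Named from the lists were genes called in either RTL1 construct against WT Col-0 or in nrpd1a-3 FTL against WT FTL, and the 3 most abundant per kb in WT Col-0. Intervals of fold changes are 95% Wald intervals.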

Additional observations from a re-analysis of the deposited data

Results flagged for a closer look

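EXO70H3, an exocyst gene outside the 10 members, had a different effect in pLAT52::RTL1 than in nrpd1a-3 FTL by a direct test of the difference (log2 -1.19, DESeq2 adjusted p 0.0203). The call was lost with edgeR (adjusted p 0.25), with TMM factors (0.0626), on the total read scale (-0.35, 0.540), without independent filtering (0.0516), without either WT Col-0 or either pLAT52::RTL1 library (0.0651 to 0.401) and without nrpd1a-3 FTL replicate 2 (0.0735).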

How the results depend on the processing

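Direction held for every member that was called, under all alternatives run. In pLAT52::RTL1 against WT Col-0, where 2 members were called, 1 was called without independent filtering, with edgeR and with only the 4 libraries of the compared groups (SYP131 each time), 4 on the total read scale, 0 with all 10 libraries, and 1 to 2 when a library was left out. In pLAT52::RTL1 against pMGH3::RTL1, also 2, 1 was called without independent filtering, with edgeR and with only the 4 libraries, 0 with all 10 libraries, and 1 to 2 when a library was left out. For the difference of the pLAT52::RTL1 and nrpd1a-3 effects, 0 became 2 on the total read scale (EXO70C1 and EXO70C2) and 0 to 2 when a library was left out. The number called stayed at 0 for pMGH3::RTL1 and nrpd1a-3 FTL under every alternative, and at 3 to 5 of 10 for WT FTL against WT Col-0. In pLAT52::RTL1 against pMGH3::RTL1 the total read scale called EXO70C1, EXO70C2 and SYP124, but not SYP131. The cause of these moves was not tested. Features called over the whole table ranged from 681 to 3294 around 1573 in pLAT52::RTL1 against WT Col-0, from 587 to 3124 around 1353 against pMGH3::RTL1, from 1 to 12 around 6 in pMGH3::RTL1, from 1 to 407 around 2 in nrpd1a-3 FTL, from 3013 to 5338 around 4942 in WT FTL and from 0 (edgeR) to 1001 around 324 for the difference of effects. Of 770 member values under alternatives, 20 lost a call, 12 gained one and 50 changed sign, 0 of them called.

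The replicate numbers do not say that libraries were paired. Differences between replicates correlated at 0.509 between the sorted groups and at -0.00735 to 0.212 between the unsorted groups. With the replicate block, features called in nrpd1a-3 FTL against WT FTL went from 2 to 407 while members called stayed at 0, and for the difference of effects 1 member was called (SYP131, -1.36, adjusted p 6.97e-05). The block changed no other call of a member. Among the other genes, SYP72 was called in nrpd1a-3 FTL against WT FTL with it (0.68, adjusted p 0.0459). SEC5A had the fewest reads of the members in every library, 16 to 132.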
